A study of Mus musculus with 28 samples.

Results

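The 6 single mouse morulae labelled MZKO were compared with the 4 labelled del, 10 of the 28 samples of a series on Ctcf in early embryos. Groups were taken from the sample titles. All were whole morulae of the CD1 strain from sequencing batch 2, and RNA was copied from polyadenylated transcripts with a SMART-Seq kit and sequenced on an Illumina HiSeq instrument. The 3 het morulae of the same table are given beside them. The labels do not spell the codes out. MZ is commonly used in this field for an embryo that lacks a gene's product from the oocyte as well as from its own genome. What del stands for, which part of Ctcf was removed, and by which Cre or other tool, was not stated in the labels. Titles also carry a prefix. All MZKO embryos carry C50 and all del and het embryos carry N2, so genotype and prefix cannot be told apart in any difference below. No label says which embryos shared a mother or a day. Each p-value therefore measures only the spread between these embryos.

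CTCF binds DNA with its zinc fingers at insulators and loop anchors, where it halts cohesin as that complex extrudes chromatin. An embryo starts with CTCF made from maternal RNA and protein and replaces it from its own genome after zygotic activation. The morula is the compacted ball of cells from which the trophectoderm, the outer layer of the blastocyst, and the inner cell mass arise. Much of what separated the groups lay in a kind of gene copy that needs a word of background. A processed pseudogene is a copy of a messenger RNA that was written back into the genome, and a nuclear copy of mitochondrial DNA is a piece of the mitochondrial genome inserted into a chromosome. Where such a copy is nearly identical to its source, few reads can tell the pair apart, and a counting program such as RSEM has to divide the rest between them.

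The letters that can tell Rpl3-ps1, Gm10020 and Gm28438 from their sources are few, which is why they are shown here. Other called copies differ from their closest source at more bases, so more reads can tell those pairs apart. Gm4864 has 54 mismatches and 26 gaps over 1469 aligned bases, AC125456.1 has 53 mismatches over 1450, and Gm7993 has 50 over 1388. Gm8420 has 20 mismatches over 596 bases and Gm5745 has 12 over 316. Sequences are from the GENCODE M21 transcripts of GRCm38, positions count from the first coding base of the source gene, and the capital marks the base that differs. Rpl3-ps1 matches the Rpl3 transcript over 1210 bases with 2 mismatches, C137A and T866C. Gm10020 matches Rpl15 over 612 bases with 2 mismatches, A373G and C419A. Gm28438 matches mt-Nd3 over 345 bases with 1 mismatch, T3C.
Rpl3, base 107 to 167: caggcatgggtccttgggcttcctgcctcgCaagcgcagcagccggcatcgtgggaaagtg
Rpl3-ps1, the same stretch: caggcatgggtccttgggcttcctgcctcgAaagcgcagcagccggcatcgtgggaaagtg
Rpl3, base 836 to 896: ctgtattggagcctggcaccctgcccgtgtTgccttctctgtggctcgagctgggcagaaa
Rpl3-ps1, the same stretch: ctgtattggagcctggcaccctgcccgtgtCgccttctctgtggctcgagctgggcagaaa
Rpl15, base 343 to 403: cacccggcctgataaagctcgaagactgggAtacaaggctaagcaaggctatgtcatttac
Gm10020, the same stretch: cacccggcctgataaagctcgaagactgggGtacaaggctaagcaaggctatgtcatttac
mt-Nd3, base 1 to 33: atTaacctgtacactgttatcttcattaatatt
Gm28438, the same stretch: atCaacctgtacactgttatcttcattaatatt

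Values are CPM, the share of an embryo's reads that a gene takes, scaled to library size. Read totals lay between 12136606 and 20414013 in MZKO and between 12368954 and 13923394 in del 2, del 3 and del 4, while del 6 had 1635553 reads, and 1 read was worth 0.581 CPM there. Of 11 morula markers, 8 reached 10 CPM in all 10 embryos, among them Pou5f1, Dppa3 and Cdh1. Some embryos carried RNA of other cells, and in whole embryos fewer cells of a type and less RNA per cell cannot be told apart. The summed level of 10 oviduct markers was 3078 CPM in MZKO 1 and 619 CPM in MZKO 8, against 170 to 236 CPM in the other MZKO, 88.8 to 402 CPM in del and 1864 CPM in het 1. None of the oviduct markers Ovgp1, Foxj1, Pax8, Sntn and Wfdc2 was at 0 in all 10 embryos. In MZKO 8, Ovgp1, Foxj1, Pax8 and Sntn stood above every del embryo, but Wfdc2, at 20.6 CPM, stood below every del embryo (29.0 to 166 CPM). Granulosa and cumulus markers summed to 1201 CPM in MZKO 1, 474 CPM in MZKO 8 and 3678 CPM in het 1, against 221 to 992 CPM in del. Haemoglobin took 0.401% of reads in MZKO 1, at most 0.130% in the other 9, reached in MZKO 4, and 1.52% in het 1. Other blood markers were divided. Alas2 was also highest in MZKO 1 among the 10, at 67.3 CPM. Lyz2 was higher in del 2 and del 4, at 302 and 207 CPM, than in MZKO 1, at 70.4 CPM. Ptprc stood at 4.52 CPM in MZKO 1 and at 6.15 CPM in both MZKO 6 and del 2. Among the genes tested, MZKO 1 correlated at 0.868 with het 1 and at 0.675 to 0.719 with the other MZKO embryos. Results are therefore also given without MZKO 1, MZKO 8 and het 1, a choice made after seeing the data. Both Y-linked genes Ddx3y and Eif2s3y reached 10 CPM in 3 of the 6 MZKO embryos, in 1 of the 4 del embryos and in none of the 3 het embryos.

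The transcriptomes of MZKO and del morulae differed past the threshold at few genes. Of 9953 genes tested, 14 were higher and 4 lower in MZKO (limma, Benjamini-Hochberg adjusted p under 0.05), which is 0.181% of genes in either direction, 0.141% higher and 0.0402% lower. At an unadjusted p under 0.05, 523 genes (5.25%) were higher and 298 (2.99%) lower. The values of the 6 MZKO and 4 del embryos did not overlap for all 18 called genes, and for 231 of all genes tested (2.32%). Single-embryo spread was wide. The 95% interval of a gene's log2 fold change, not adjusted over genes, reached 0.96 to either side of its value at the median gene. A call after adjustment needed a larger difference than that at such a gene. A gene that was not called is therefore not shown to be alike in both groups. With precision weights in the fit (limma's voom), 2 genes passed, mt-Nd3 and Zswim5, and both rose. Most genes of the called set were copies of other genes. A pseudogene annotation was held by 10 of the 18 (55.6%) and by 2.52% of the genes tested. All pseudogene models together took 2.30% ± 0.240 of reads in MZKO and 2.13% ± 0.199 in del (SD, n = 6 and 4, exact permutation p = 0.305). Of the 18, 14 matched another annotated transcript at 90% identity or more over at least 80% of their length. How many of all genes tested have such a match was not measured, so this count has no background. The 4 without such a match were Zswim5, Cap1, Sfn and Tie1.

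**Figure D1:**
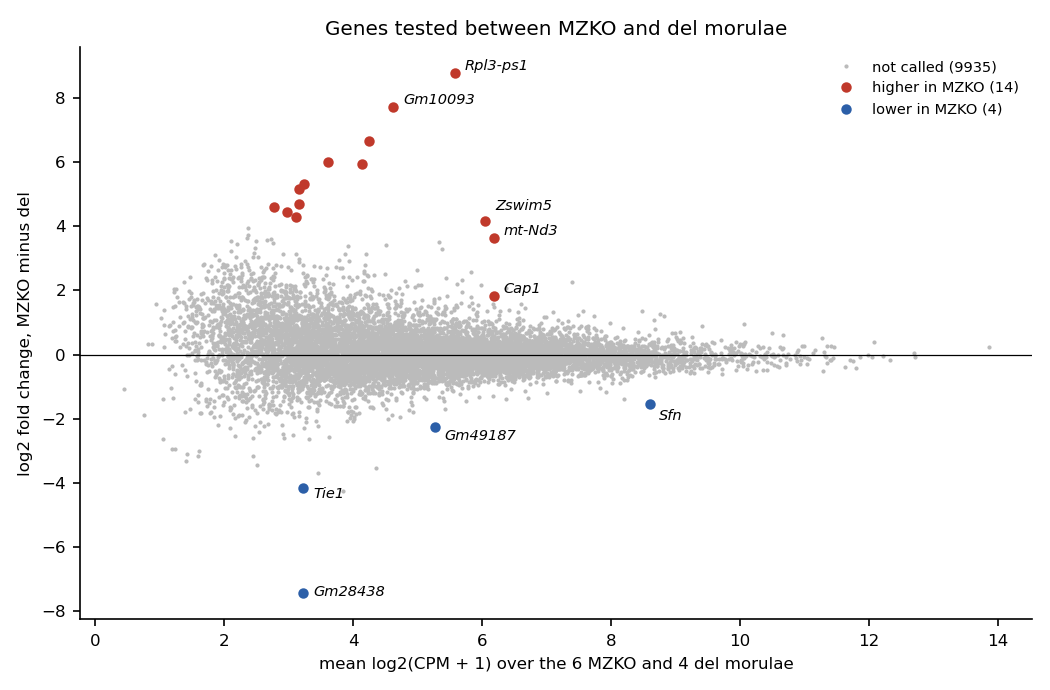
Each point is 1 of the 9953 genes tested. The x axis is the mean log2(CPM + 1) over the 6 MZKO and 4 del morulae and the y axis is the log2 fold change, MZKO minus del. Red points are the 14 genes higher and blue points the 4 genes lower in MZKO at an adjusted p under 0.05, and most stand outside the cloud of genes that were not called.

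The mitochondrial gene mt-Nd3, which encodes a subunit of complex I, rose in MZKO, and its nuclear copy Gm28438 fell. In MZKO, mt-Nd3 (ENSMUSG00000064360, mitochondrial genome, 9459 to 9806, plus strand) ranged from 113 to 308 CPM with a median of 220.5 CPM. In del it stood at 12.6, 6.74, 19.98 and 29.6 CPM in embryos 2, 3, 4 and 6. Every MZKO embryo was above every del embryo, and the log2 fold change was 3.62 (SE 0.39, adjusted p = 3.56e-05). Gm28438 (chromosome 1, 24612775 to 24613119, minus strand) stood at 139, 166, 186 and 412 CPM in del 2, 3, 4 and 6, while MZKO 2 had 1.89 CPM and the other 5 MZKO embryos had 0 reads. It was lower in MZKO (log2 fold change −7.43 at a pseudocount of 1 CPM, SE 0.47, adjusted p = 1.13e-08). The pair differs by the single base printed above. Added together, the 2 models came to 211 ± 79.3 CPM in the 6 MZKO and 243 ± 134 CPM in the 4 del embryos (SD), and the sums overlapped (exact permutation p = 0.657, 0.75 after adjustment over 9 such families). The ratio of the sums was 0.869 and turned to 1.19 without del 6. The copy took 90.3% to 96.1% of the sum in del and 0% to 1.04% in MZKO. Het embryos divided the pair as del did, with mt-Nd3 at 9.68 to 13.1 CPM and Gm28438 at 117 to 179 CPM.

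The other mitochondrially encoded transcripts did not follow mt-Nd3. Of 15 measured, 1 was called (by voom also 1), and the median log2 fold change of the 15 was −0.07, against 0.02 over all genes tested. Without del 6 this median turned to 0.16, with 14 of the 15 above 0. Cytochrome b, mt-Cytb, stood at 3745 CPM in MZKO and 3905 CPM in del (−0.07, adjusted p = 0.961). The subunit mt-Nd4l stood at 261 and 245 CPM (0.08, adjusted p = 0.951). Together the 15 transcripts took 2.37% ± 0.490 of reads in MZKO and 2.48% ± 0.861 in del (SD, n = 6 and 4, exact permutation p = 0.810).

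Pseudogenes of 3 ribosomal proteins of the large subunit rose in MZKO from almost nothing. Rpl3-ps1 (ENSMUSG00000084349, chromosome X, 13202571 to 13203780, plus strand) ranged from 301 to 782 CPM in MZKO with a median of 626 CPM. In del it held 16 reads over the 4 embryos, all in del 2 (1.35 CPM), and it had the largest log2 fold change of all genes tested, 8.78 on the scale with 1 CPM added (SE 0.43, adjusted p = 4.51e-10). Gm10020 (chromosome 15, 52477617 to 52478228, minus strand) averaged 127 ± 41.9 CPM over the 6 MZKO and 0.214 ± 0.255 CPM over the 4 del embryos (SD; log2 fold change 6.66, SE 0.52, adjusted p = 3.61e-07). Of the other called Rpl15 copies, Gm8420 had 24.9 ± 8.92 CPM in MZKO and 0 reads in del (adjusted p = 0.00320), at least 41.1-fold higher against a floor of 3 reads per embryo. Rpl15-ps2 had 29.1 ± 10.8 CPM and 0.5003 ± 0.488 CPM (adjusted p = 0.00320). Gm5745, a copy of Rpl36, ranged from 44.6 to 165 CPM in MZKO and had reads in 1 del embryo, del 6 with 4.06 CPM (adjusted p = 3.56e-05).

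The source genes did not pass the test in the other direction, and the sums of copy and source overlapped between the groups. Here and below, each sum and share covers the source and its called copies only. With the source included, Rpl3-ps1 matched 21 other gene models at the limits given above, Gm10020 20, Gm5745 11 and Gm7993 9. Those that were not called were left out of the sums. Rpl3 itself stood at 726 to 1429 CPM in MZKO, median 1130 CPM, and at 1358, 1418, 1595 and 1615 CPM in del 2, 3, 4 and 6 (−0.50, SE 0.24, adjusted p = 0.620). The copy took 24.7% to 41.0% of the Rpl3 sum in MZKO and at most 0.0992% in del. The Rpl3 sums averaged 1651 and 1497 CPM, a ratio of 1.10 (exact permutation p = 0.448). Without MZKO 1 and MZKO 8, the 4 MZKO sums left all lay above those of del, with a ratio of 1.26. The exact permutation p was 0.0286 before adjustment, the lowest value that 4 against 4 embryos can give. Rpl15 itself did not pass (−0.33, adjusted p = 0.796). Its 3 called copies took 15.1% to 26.1% of the sum in MZKO and at most 0.155% in del, and the sums had a ratio of 1.06 (exact permutation p = 0.667). Rpl36 did not pass either (−0.19, adjusted p = 0.870), Gm5745 took 17.2% to 38.7% in MZKO and at most 1.17% in del, and the ratio was 1.26 (exact permutation p = 0.295). In all 3 families the range of the copy's share in MZKO stood far above that in del.

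Copies of 4 other housekeeping genes behaved alike. Hdac1 encodes a histone deacetylase, and 3 of its copies were called. Gm10093 (chromosome 17, 78491582 to 78493025, plus strand, 9 mismatches over 1444 bases) ranged from 137 to 311 CPM in MZKO, median 219 CPM, with 0 reads in all 4 del embryos, at least 359-fold higher against the floor of 3 reads per embryo (adjusted p = 1.07e-08). Gm4864 had 68.3 ± 26.8 CPM and 0 reads in del (at least 113-fold higher, adjusted p = 1.23e-05), and AC125456.1 had 38.9 ± 15.2 CPM and 3 reads in del (adjusted p = 2.53e-04; SD, n = 6). Together the copies took 20.1% to 37.3% of the Hdac1 sum in MZKO and at most 0.0221% in del. Hdac1 itself stood at 724 ± 175 and 877 ± 62.8 CPM (−0.31, adjusted p = 0.770). The sums had a ratio of 1.196 (exact permutation p = 0.229), and of 1.36 without MZKO 1 and MZKO 8, where the groups no longer overlapped. There the exact permutation p was 0.0286 before adjustment, again the lowest value possible with the embryos left.

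Gm7993 copies Odc1, the first enzyme of polyamine synthesis, and had 42.7 ± 17.2 CPM in MZKO and 2 reads in del (adjusted p = 1.59e-04). Gm10282 copies Hmgn2, a nucleosome-binding protein, and had 28.1 ± 13.5 CPM in MZKO and 0.268 ± 0.311 CPM in del (adjusted p = 0.00320). Eno1b copies the glycolytic enolase Eno1 and ranged from 4.46 CPM in MZKO 3 to 91.9 CPM in MZKO 1, against at most 0.842 CPM in del (4.69, SE 0.77, adjusted p = 0.00634). Its level was highest in the MZKO embryo with most oviduct RNA, and it was not called without MZKO 1, MZKO 8 and het 1 (4.25, adjusted p = 0.0993). Odc1, Hmgn2 and Eno1 had log2 fold changes of −0.30, 0.09 and −0.21, and their adjusted p lay between 0.879 and 0.928. The 3 sums had ratios of 0.939, 1.15 and 1.27 (exact permutation p = 0.838, 0.200 and 0.486). That of Odc1 turned above 1 without MZKO 1 or without del 6, at 1.06 and 1.09. That of Hmgn2 passed the unadjusted threshold without del 6 (ratio 1.24, exact permutation p = 0.0476).

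Over all 9 families, no sum passed after adjustment, and the lowest adjusted p of an exact permutation test was 0.171. With 6 against 4 embryos a lone family could not have passed, so this does not show that the sums were alike. The share of the copy differed in 8 of them at the lowest value an exact permutation test of these embryos can reach, p = 0.00952, but the copies had been chosen by the same reads. Whether MZKO embryos transcribed these copies, or whether reads of the source were assigned to them, was not tested.

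**Figure D2:**
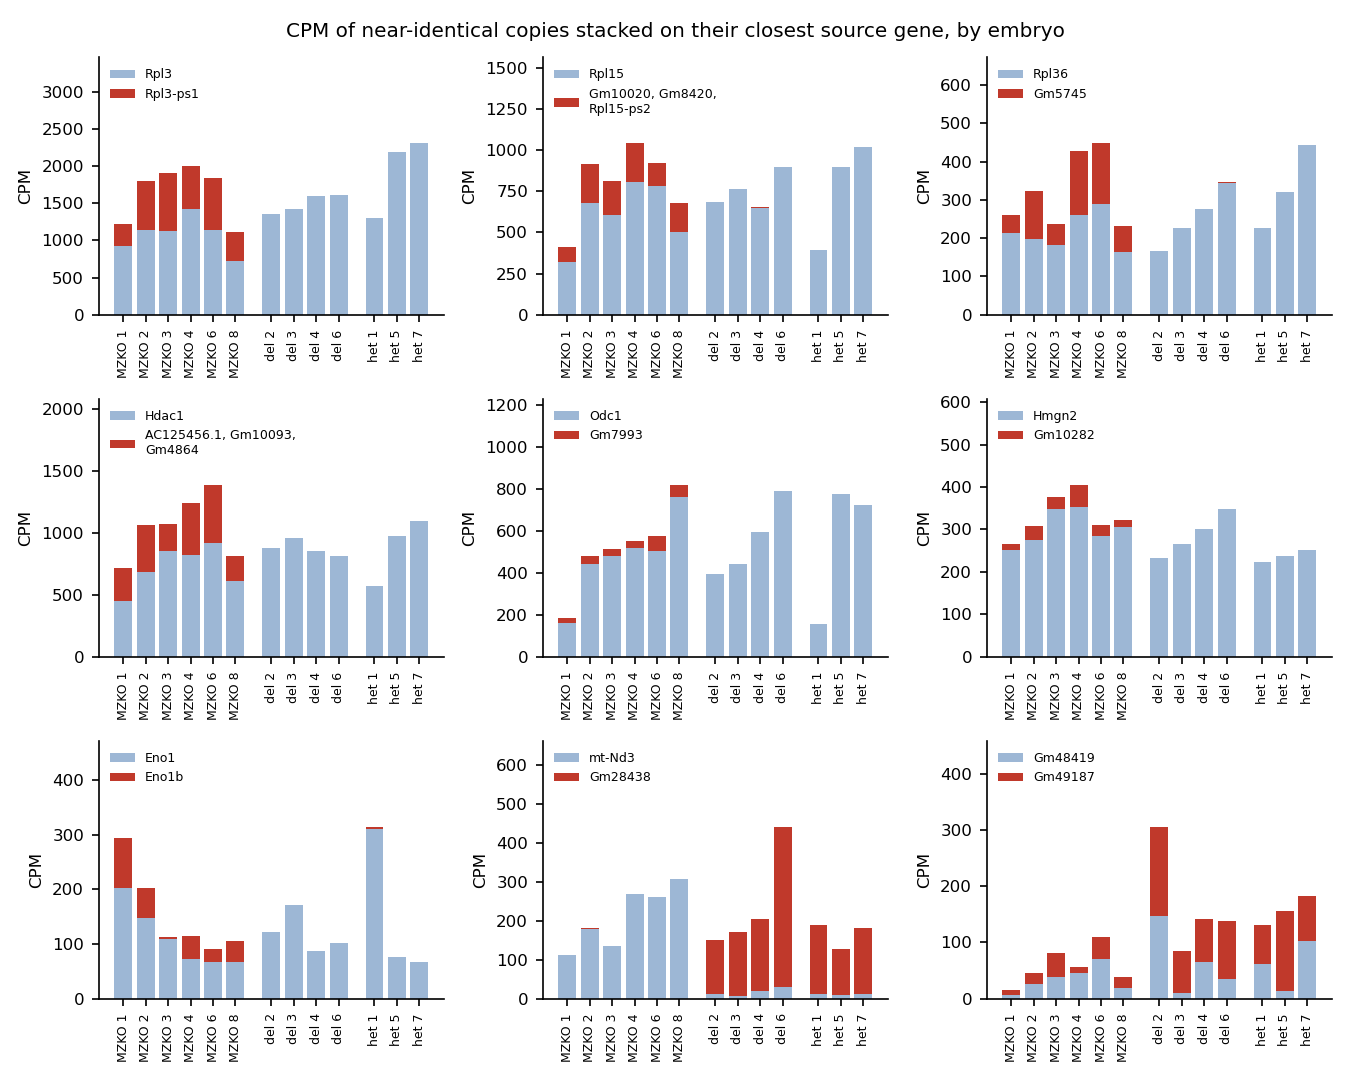
Bars show CPM by embryo for 9 source genes (blue) with their called near-identical copies stacked on top (red), from 0. Red parts appear in the 6 MZKO embryos and not or barely in the 4 del and 3 het embryos for 7 families. The mt-Nd3 panel shows the opposite, and in the Gm48419 panel all groups hold both models.

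Among genes without a near-identical copy, Zswim5 and Cap1 rose and Sfn and Tie1 fell. Zswim5 (ENSMUSG00000033948, chromosome 4, 116877376 to 116989264, plus strand), a zinc finger protein of the SWIM type, ranged from 119 to 352 CPM in MZKO, median 188 CPM. In del 2, 3, 4 and 6 it stood at 22.7, 3.97, 5.17 and 24.97 CPM, and in het at 0.390 to 12.98 CPM. The lowest MZKO embryo was well above the highest of the others (log2 fold change 4.16, SE 0.59, adjusted p = 0.00126), and the gene was called in all 10 fits that left out 1 MZKO or del embryo.

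Cap1 (chromosome 4, 122859047 to 122886056, minus strand) encodes a regulator of actin turnover. It ranged from 77.0 to 198 CPM in MZKO, median 124 CPM, and stood at 43.2, 44.0, 15.5 and 38.9 CPM in del 2, 3, 4 and 6 (1.83, SE 0.34, adjusted p = 0.0204). The call was lost without MZKO 2, MZKO 4 or del 4 (adjusted p = 0.0706, 0.0672 and 0.0865). Against het, at 44.8 to 61.4 CPM, MZKO did not pass (1.11, adjusted p = 0.292).

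Sfn (chromosome 4, 133600556 to 133602168, minus strand) encodes 14-3-3 sigma, an adaptor protein of epithelia and a p53 target. It ranged from 142 to 369 CPM in MZKO, median 267 CPM, and stood at 632, 818, 726 and 763 CPM in del 2, 3, 4 and 6 (−1.53, SE 0.27, adjusted p = 0.0128). It had the highest level of the called genes in del, and het embryos reached 629 to 1313 CPM. The call was lost without del 3, del 4 or del 6 (adjusted p = 0.0666, 0.0554 and 0.0601) and held without MZKO 1, MZKO 8 and het 1 (−1.34, adjusted p = 0.00208).

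Tie1 (chromosome 4, 118471191 to 118490061, minus strand) encodes a receptor tyrosine kinase known from endothelium. It was at 26.6 CPM in MZKO 3, at 9.85 CPM in MZKO 8 and under 1 CPM in the other 4 MZKO embryos, against 45.2, 50.2, 60.9 and 53.4 CPM in del 2, 3, 4 and 6 (−4.17, SE 0.81, adjusted p = 0.0358). Het embryos stood with del, at 34.2 to 68.0 CPM. The call was lost under 18 of 24 alternatives. They include the fit without MZKO 1, MZKO 8 and het 1 (adjusted p = 0.0580), that with precision weights (0.352), and those without any 1 of MZKO 1, MZKO 2, MZKO 4, MZKO 6 or the 4 del embryos (adjusted p between 0.0629 and 0.150).

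Gm49187, a transcript on chromosome 15 (21958432 to 21959811, plus strand) whose coding status is not settled in the annotation, was lower in MZKO at 7.92 to 42.8 CPM, median 19.5 CPM, against 158, 74.4, 76.6 and 103 CPM in del 2, 3, 4 and 6 (−2.27, SE 0.44, adjusted p = 0.0344). It shares 1380 bases with the noncoding gene Gm48419 at 5 mismatches. The sum of both models had a ratio of 0.346, the lowest of the 9 families, and did not pass after adjustment (exact permutation p = 0.0190, adjusted p = 0.171). The call was lost without MZKO 1, MZKO 8 and het 1 (adjusted p = 0.0993), with both looser filters (0.0598 and 0.0602), with only MZKO and del in the fit (0.0532) and with a Y-linked covariate (0.0572). It was also lost without MZKO 2, MZKO 4, MZKO 8 or any 1 of the 4 del embryos (adjusted p between 0.0645 and 0.179).

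All 4 called genes without a copy lie on chromosome 4, between 116877376 and 133602168. These 16.7 Mb hold 163 tested genes, 1.64% of those tested, of which 4 were called, 10 were higher and 10 lower at an unadjusted p under 0.05 (12.3%, against 8.25% of all genes), and the median log2 fold change was −0.07. The window was drawn from the called genes themselves and has no test. Hdac1, not called, lies inside it, and Hmgn2 and Eno1, not called either, lie on the same chromosome. Chromosome 4 as a whole held 6.72% of the genes tested and 4 of the 18 called (22.2%).

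**Figure D3:**
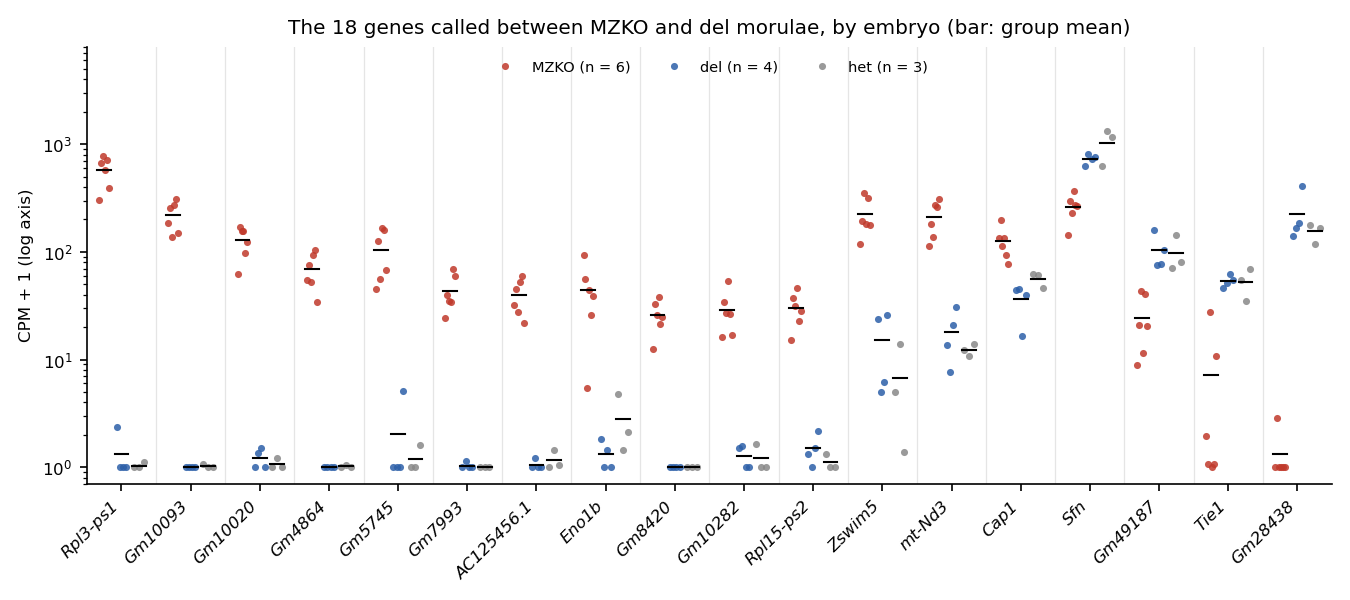
Points are single embryos for the 18 called genes, ordered by log2 fold change, with CPM + 1 on a log axis. MZKO embryos are red, del blue and het grey, and black bars are group means. MZKO and del values do not overlap for any gene shown, and het points lie near those of del for most genes.

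Ctcf RNA was low in both groups. It stood at 7.54, 1.21, 8.68, 2.37, 6.15 and 0 CPM in MZKO 1, 2, 3, 4, 6 and 8, at 0.421, 2.98, 0 and 5.81 CPM in del 2, 3, 4 and 6, and at 26.1 to 54.6 CPM in het. MZKO and del overlapped (exact permutation p = 0.362), and the fitted log2 fold change was 0.70 with a 95% interval from −1.02 to 2.43. Reads were counted over the whole gene, so a shortened transcript and a missing one cannot be told apart. Of 29 cohesin and CTCF-associated genes tested, 0 were called by limma or voom, 1 was higher and 1 lower at an unadjusted p under 0.05, and the median log2 fold change was 0.00. The core subunits Rad21 (156 ± 36.8 and 164 ± 28.3 CPM) and Smc3 (137 ± 34.4 and 155 ± 28.4 CPM; SD, n = 6 and 4) and the release factor Wapl (84.4 ± 19.7 and 102 ± 23.9 CPM) had log2 fold changes of −0.09, −0.20 and −0.29. Stag3, the meiotic cohesin subunit, had the lowest unadjusted p of the list (−1.40, adjusted p = 0.484).

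Lineage regulators did not separate the groups past the threshold. Cdx2, the trophectoderm factor, stood at 8.30 to 14.9 CPM in MZKO, median 9.74 CPM, and at 8.84, 16.3, 11.1 and 0 CPM in del 2, 3, 4 and 6 (0.81, 95% interval −0.63 to 2.25, adjusted p = 0.784). Gata3, its partner in that lineage, stood at 0.0788 to 11.4 CPM in MZKO and 3.12, 4.61, 2.59 and 9.29 CPM in del 2, 3, 4 and 6 (−0.02, adjusted p = 0.998). Both were higher in every het embryo, at 20.1 to 76.0 CPM for Cdx2 and 30.5 to 121 CPM for Gata3, although no comparison with het passed for either (adjusted p of 0.388 and 0.114 for MZKO, 0.630 and 0.629 for del). Tead4, which acts upstream of Cdx2, averaged 184 ± 74.2 CPM in MZKO and 188 ± 44.5 CPM in del (−0.13, 95% interval −0.89 to 0.62).

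Pluripotency genes gave one lean that did not pass. Nanog, a factor of the later epiblast, ranged from 76.9 to 242 CPM in MZKO, median 177 CPM, against 57.0, 37.5, 81.1 and 51.1 CPM in del 2, 3, 4 and 6 (1.44, 95% interval 0.56 to 2.32, adjusted p = 0.276). Only MZKO 8, at 76.9 CPM, fell within the range of del. No alternative brought Nanog past the threshold, with adjusted p from 0.0531 to 0.697. Pou5f1, which encodes Oct4, stood at 346 to 734 CPM in MZKO and at 793, 1015, 859 and 569 CPM in del 2, 3, 4 and 6 (−0.43, 95% interval −1.01 to 0.15, adjusted p = 0.729). Sox2 was at most 3.71 CPM in all 10 embryos and was not tested. Gata6 of the primitive endoderm averaged 66.1 ± 24.1 and 59.6 ± 10.6 CPM (0.09, adjusted p = 0.961). Dppa3, a maternal-effect gene still abundant at this stage, averaged 2285 ± 704 and 3111 ± 326 CPM (−0.52, adjusted p = 0.720), with its lowest level in MZKO 1.

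**Figure D4:**
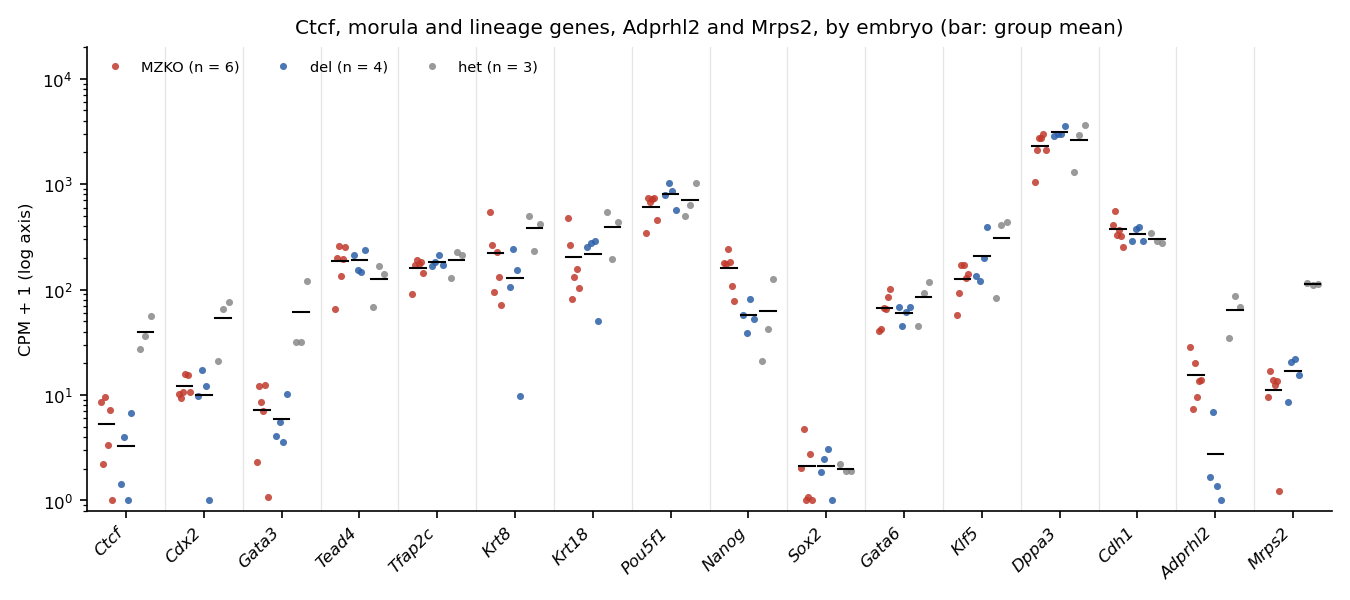
Points are single embryos and black bars group means, with CPM + 1 on a log axis, for Ctcf, morula and lineage genes and 2 genes known from the blastocyst comparison. MZKO (red) and del (blue) overlap for all genes shown except Adprhl2, while het embryos (grey) stand higher for Ctcf, Cdx2, Gata3, Adprhl2 and Mrps2.

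The lineage lists held no call by limma or by voom. List members that did not pass are named below by their unadjusted p, seen in these data, as a description only. For every gene list, the background is all genes tested, of which 5.25% were higher and 2.99% lower at an unadjusted p under 0.05. MZKO and del values did not overlap for 2.32% of all genes tested. Of 23 trophectoderm genes 3 were higher and 1 lower at an unadjusted p under 0.05, with a median of −0.02, and 0.28 without MZKO 1, MZKO 8 and het 1. Cldn4, a tight junction claudin, stood at 96.7 ± 40.0 CPM in MZKO and 219 ± 70.7 CPM in del (−1.21, adjusted p = 0.195), and Hand1, a factor of trophoblast giant cells, at 200 ± 57.8 and 110 ± 23.8 CPM (0.83, adjusted p = 0.506). Of 24 pluripotency genes only Nanog had an unadjusted p under 0.05, and the median was −0.20, which turned to 0.05 without MZKO 1, MZKO 8 and het 1. Of 12 primitive endoderm genes 2 were higher, Pdgfra (25.6 ± 15.96 and 5.40 ± 7.91 CPM, adjusted p = 0.360) and Col4a1 (35.5 ± 21.9 and 8.49 ± 7.56 CPM, adjusted p = 0.379). The primitive endoderm median was 0.92 over the 12 of 19 listed genes that passed the filter, and 0.47 over the 8 still tested without MZKO 1, MZKO 8 and het 1. A gene high in MZKO alone can pass that filter, so this median was not read as a difference between groups. Of 18 Hippo pathway genes and 37 genes of cavitation, polarity and junctions, 1 and 3 had an unadjusted p under 0.05, with medians of 0.04 and 0.13.

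Several glycolysis genes had higher values in MZKO, without a call. Of 24 listed, 22 reached the level for a test and 0 passed by limma or voom. Of these 4 were higher and 0 lower at an unadjusted p under 0.05 (18.2%, against 8.25% of all genes). Their median was 0.60, and 0.41 over the 19 still tested without MZKO 1, MZKO 8 and het 1. A gene high in MZKO alone can pass the filter, so this share and median were not read as a difference between groups. Summed over the list, MZKO embryos held 2219 to 4283 CPM and del embryos 2136, 2103, 2040 and 1303 CPM in embryos 2, 3, 4 and 6, so the groups did not overlap. The sum was highest in MZKO 1, with most oviduct RNA, and lowest in del 6, with least depth. Their part in this was not tested. Het embryos spanned 1445 to 3850 CPM, with the highest value in het 1. Gapdh stood at 401 ± 286 CPM in MZKO and 89.4 ± 59.1 CPM in del (2.28, SE 0.65, adjusted p = 0.257). Gpi1, glucose phosphate isomerase, stood at 88.7 to 169 CPM in MZKO and 72.1, 67.4, 46.6 and 61.5 CPM in del 2, 3, 4 and 6 (1.02, SE 0.32, adjusted p = 0.351), with no overlap. Pkm, a pyruvate kinase, and Pgam1, a mutase, did not pass either (1.33 and 0.61, adjusted p = 0.499 and 0.524). The glucose transporter Slc2a1 stood at 55.4 ± 58.7 and 11.9 ± 4.16 CPM (adjusted p = 0.773).

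Mitochondrial metabolism showed little difference. Of 77 nuclear-encoded oxidative phosphorylation genes 0 were called by limma or voom, 0 were higher and 3 lower at an unadjusted p under 0.05, among them Ndufb8 of complex I (107 ± 27.5 and 168 ± 26.7 CPM, adjusted p = 0.479), and the median was −0.10. Of 33 genes of pyruvate, the tricarboxylic acid cycle and the malate-aspartate shuttle 2 were higher, led by Suclg2, a succinyl-CoA ligase subunit (83.9 ± 10.8 and 49.3 ± 7.63 CPM, adjusted p = 0.364), with a median of 0.08. Of 24 fatty acid genes 2 were higher and 1 lower, with a median of 0.18, and the beta-oxidation enzyme Hadh stood at 122 ± 17.7 and 72.1 ± 23.7 CPM (adjusted p = 0.376). Cholesterol and lipid synthesis had a median of 0.18 over 26 genes, and nucleotide, serine and one-carbon synthesis 0.05 over 36.

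Genes of the translation machinery leaned lower in MZKO, and less so without the embryos that stood apart. Of 81 cytosolic ribosomal protein genes 9 lay above 0 and the median was −0.24, but 0 were called by limma or voom, and 0 were higher and 2 lower at an unadjusted p under 0.05. Without MZKO 1, MZKO 8 and het 1 the median was −0.08. Their summed share of reads was 4.5% ± 0.901 in MZKO and 5.16% ± 0.702 in del (SD, n = 6 and 4, exact permutation p = 0.238), and the lowest shares were those of MZKO 1 and MZKO 8. Rpl21 had the lowest unadjusted p, at 263 ± 89.6 and 418 ± 86.1 CPM (adjusted p = 0.499). The mitochondrial ribosome had a median of −0.22 over 81 genes, and −0.06 without those 3 embryos. Ribosome biogenesis had −0.11 over 55 genes, which turned to 0.13, and the proteasome −0.02 over 41, which turned to 0.14.

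Cell cycle and stress lists held no call by limma or voom. Of 51 genes of DNA replication and G1/S 3 were higher and 4 lower at an unadjusted p under 0.05, with a median of 0.03. Cyclin D1, Ccnd1, stood at 88.0 ± 58.2 CPM in MZKO and 25.9 ± 10.2 CPM in del (adjusted p = 0.375), and thymidylate synthase, Tyms, at 219 ± 90.1 and 381 ± 88.0 CPM (adjusted p = 0.460). Of 50 mitosis genes 2 were higher and 0 lower, with a median of 0.07. Of 28 p53 targets 0 were higher and 1 lower. Sfn was not on that list. Of 28 genes that answer amino acid shortage or misfolded protein in the endoplasmic reticulum 2 were higher and 1 lower, with a median of 0.17. Among them Dnajc3, a chaperone of the endoplasmic reticulum, stood at 39.4 to 88.2 CPM in MZKO and at 12.97, 23.1, 25.6 and 16.3 CPM in del 2, 3, 4 and 6, without overlap (1.49, SE 0.39, adjusted p = 0.198). Immediate early and heat shock genes had a median of 0.30 over 18.

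Maternal, early and imprinted transcripts were likewise uncalled by limma and voom. Of 7 oocyte and maternal-effect genes tested 1 was lower at an unadjusted p under 0.05, the zona protein Zp3 (18.6 ± 8.29 and 42.1 ± 24.3 CPM, adjusted p = 0.606). Of 10 transcripts of the 2-cell stage and zygotic activation 1 was higher and 1 lower, with a median of 0.01. Of 14 genes of DNA methylation and its protection 0 were higher or lower, with a median of 0.15. Of 45 imprinted genes listed 19 were tested, of which 3 were higher and 1 lower (21.1%, against 8.25% of all genes). Their median was 0.50, and 0.24 over the 16 still tested without MZKO 1, MZKO 8 and het 1. A gene high in MZKO alone can pass the filter, so this median was not read as a difference between groups. Impact, an inhibitor of the kinase Gcn2, stood at 63.3 to 153 CPM in MZKO, at 37.6, 32.5, 37.4 and 45.3 CPM in del 2, 3, 4 and 6 and at 5.62 to 19.4 CPM in het. It did not pass against del (1.49, SE 0.35, adjusted p = 0.136) and passed against het (3.04, adjusted p = 2.90e-04). Of 44 clustered protocadherins 2 had a row in the table. Neither reached the level needed for a test, and they summed to at most 23.3 CPM in MZKO and 4.31 CPM in del.

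**Figure D5:**
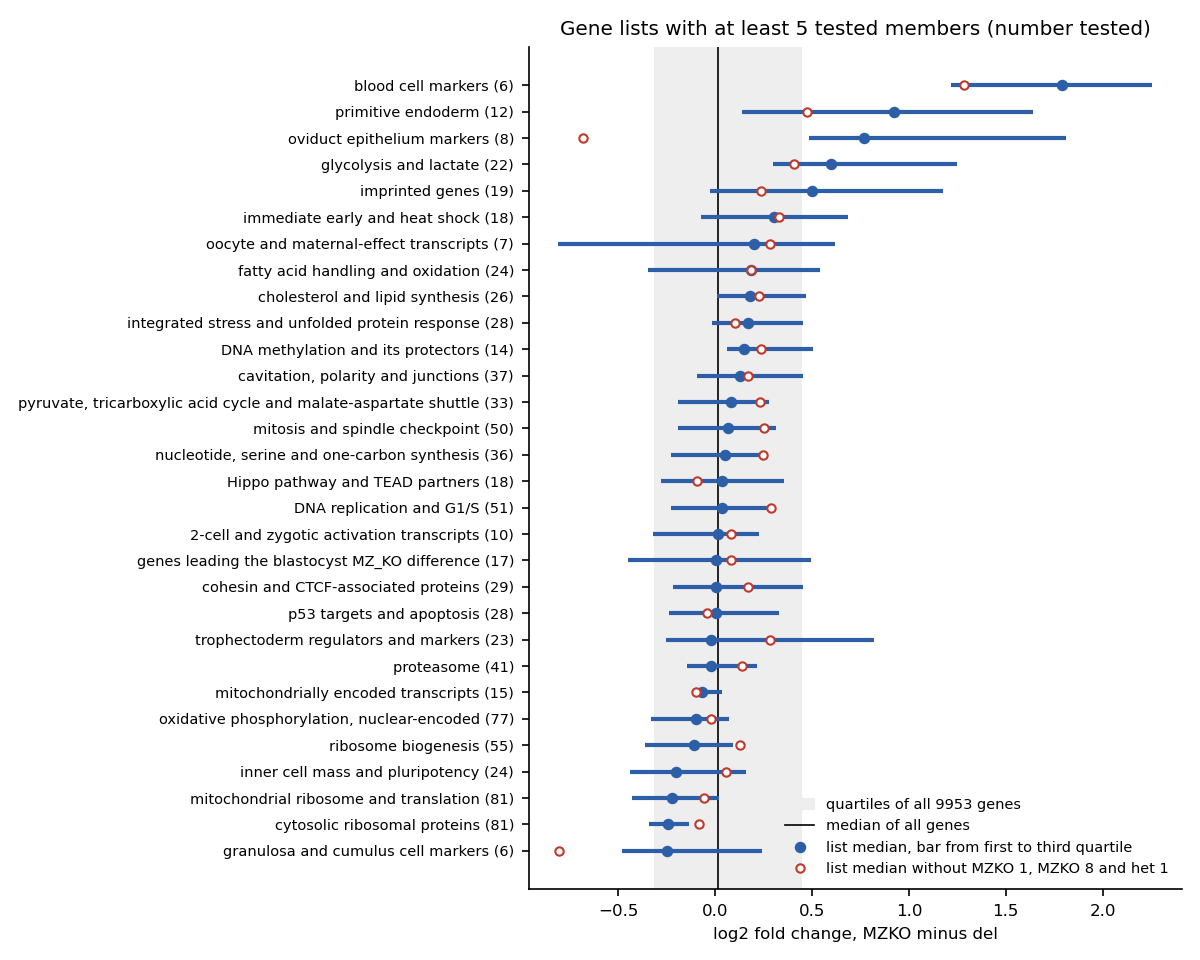
Filled points are the median log2 fold change, MZKO minus del, of each gene list with at least 5 tested members, bars run from the first to the third quartile, and the number of tested genes is in brackets. Open points are medians without MZKO 1, MZKO 8 and het 1. The grey band holds the middle of all 9953 genes, from −0.31 to 0.44. Medians of blood markers, primitive endoderm, oviduct markers, glycolysis and imprinted genes lie above the band, and those of the oviduct and the granulosa and cumulus markers drop below it without the 3 embryos. A gene high in MZKO alone can pass the filter for a test, so medians above the band were not read as differences between groups.

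Genes that differed in blastocysts were looked up in MZKO and del morulae. In the blastocyst table, 1038 genes were lower in the 3 MZ_KO than in the 4 het embryos (10.8% of 9585 tested), and 673 were higher (7.02%). There too the MZ_KO and het embryos carry different title prefixes, so genotype and prefix cannot be told apart. Of the 1038, 911 were tested in morulae, where 0 were called by limma, 56 were higher and 10 lower in MZKO than in del at an unadjusted p under 0.05 (7.24%, against 8.25% of all genes), and the median was 0.17. Relative to het morulae, which both contrasts share, the same genes had medians of −0.10 in MZKO and −0.28 in del. For the 209 tested genes that were at least 4-fold lower in MZ_KO blastocysts, the 3 medians were 0.38, −0.34 and −0.80. Of these 209, 17 were higher and 1 lower in MZKO than in del at an unadjusted p under 0.05 (8.61%, against 8.25% of all genes). Of the 640 tested genes that were higher in MZ_KO blastocysts 1 was called in morulae, Gm49187, which was lower in MZKO. At an unadjusted p under 0.05, 17 were higher and 30 lower (7.34%, against 8.25% of all genes), and the median was −0.19. Of the 39 tested genes at least 4-fold higher in MZ_KO blastocysts 0 were called by limma, 6 were higher and 1 lower at an unadjusted p under 0.05 (17.9%, against 8.25% of all genes), and the median was −0.07.

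Adprhl2, which removes ADP-ribose from serines, had the lowest adjusted p among the listed genes leading the blastocyst MZ_KO difference, but was not called. It stood at 6.34 to 27.7 CPM in MZKO, median 12.8 CPM, at 0.674, 5.96, 0.359 and 0 CPM in del 2, 3, 4 and 6, and at 33.8, 86.6 and 67.3 CPM in het 1, 5 and 7. The 3 groups did not overlap. The difference of MZKO from del was 2.82 on the log2 scale (SE 0.63, adjusted p = 0.119). Adprhl2 passed without del 3, the del embryo with its highest level (adjusted p = 0.0222). In the other 23 of 24 alternatives it did not pass, with limma adjusted p up to 0.872, reached with voom weights. It was also the 1 gene, 0.01% of those tested, that differed between del and het (−4.89, adjusted p = 0.0318). Mrps2, of the small mitochondrial ribosomal subunit, stood at 10.2 ± 5.43 CPM in MZKO, 15.7 ± 6.13 CPM in del and 109 to 115 CPM in het, and passed for MZKO against het (−3.69, adjusted p = 0.0111) but not for del against het (−2.85, adjusted p = 0.572), a difference between contrasts that was tested only as MZKO against del (−0.84, adjusted p = 0.755). Gfm1, a mitochondrial elongation factor, averaged 59.3 ± 34.0 and 54.2 ± 25.3 CPM in MZKO and del, and Fabp5, a fatty acid-binding protein, 24.96 ± 13.99 and 17.98 ± 16.6 CPM. Over the 17 tested genes of this list the median was 0.00.

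Of the 18 called genes, 7 were tested in blastocysts, and 1 of them, Gm49187, differed between MZ_KO and het there. Rpl3-ps1 was at most 4.73 CPM in every blastocyst group. Taken alone, mt-Nd3 ranged from 46.5 to 121 CPM over all 14 blastocysts, labelled MZ_KO, M_KO, het and WT_flfl. It stood above every del morula there and reached the level of MZKO 1, the lowest MZKO morula. Its copy Gm28438 had no blastocyst value, so the pair could not be summed there. In del morulae the pair came to 152 to 442 CPM, above every blastocyst value of mt-Nd3. The tables were scaled apart, and all blastocysts used came from another sequencing batch than the morulae. Stage and batch cannot be told apart, so these levels are set side by side without a test. Zswim5 reached 24.5 CPM at most in MZ_KO blastocysts and 20.4 CPM in het (adjusted p = 0.429). Gm49187 was higher in MZ_KO than in het blastocysts (1.44, adjusted p = 0.0170), opposite to its sign in morulae.

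Against het morulae, MZKO differed at 48 genes (0.482%) and del at 1. Both comparisons share the het embryos, and MZKO against del shares its embryos with each. All called genes but Eno1b and Cap1 also passed for MZKO against het, and none of the 18 passed for del against het, with log2 fold changes between −0.94 (Eno1b) and 1.35 (Zswim5). Whole transcriptomes overlapped too. Pairs of MZKO embryos correlated at 0.675 to 0.902 over the genes tested, pairs of del embryos at 0.776 to 0.889, and MZKO with del at 0.563 to 0.884. Leaving out MZKO 1 and MZKO 8 narrowed these ranges to 0.848 to 0.902 within MZKO and 0.789 to 0.884 with del.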

How the data were processed

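Single morulae were measured by RNA-seq of polyadenylated RNA. The authors deposited 1 table per stage with log2 CPM, to which an offset of 0.5 reads on a scaled library size had been added. The submitters' processing notes name cutadapt 1.14, Bowtie2 2.2.9, RSEM 1.3.1 and GRCm38, with no role or order, so the way reads shared by near-identical transcripts were divided is unknown here. The kit is not one that marks strand, so a gene and an antisense partner cannot be told apart.

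CPM was recovered as 2 to the deposited value minus the column's lowest value. All values then stood within 0.01 reads of a whole read (100% of the morula table). Values were tested as log2(CPM + 1), so a fold change understates that of low genes. Because the deposited unit is a log2 value, the test was limma 3.58.1 with a trend (R 4.3.3), over the 9953 of 16745 genes that reached 10 CPM in 3 or more of the 13 morulae. All 13 morulae entered the fit, and p was adjusted by Benjamini-Hochberg with a threshold of 0.05. Single values and sums used a two-sided exact permutation test over 210 splits of the embryos, whose smallest p is 0.00952. Where embryos were left out, fewer splits remained and the smallest possible p was larger. Near-identical models were found with blastn 2.17.0 among GENCODE M21 transcripts. Embryos of a group were compared in pairs, and no pair agreed within counting noise. The test was checked on simulated data.

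Genes named by rule were those called in every fit that left out 1 embryo, with no overlap between groups: the 14 with the largest fold each way among named genes with a mean of at least 20 CPM in the higher group, and the 3 largest each way among pseudogene, Gm and clone symbols. Ctcf, Cdx2, Gata3, Tead4, Pou5f1, Nanog, Sox2 and Gata6 were named whatever their result. The rule gave Zswim5, mt-Nd3, Eno1b, Rpl3-ps1, Gm10093, Gm10020 and Gm28438. The other called genes, and list members that did not pass, were named after their values were seen. The comparison and the 33 gene lists were chosen with earlier results of these data known. Alternatives were other pseudocounts, filters, scalings, weights and covariates, thinning to equal depth, a replicate block and leaving out embryos.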

Additional observations from a re-analysis of the deposited data

Results flagged for a closer look

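For 13 of 73 sets of values, each set being 1 measure in 1 group, 1 embryo stood far from the others. Some of these measures were called genes at 0 in all other embryos of the group, where a few reads in 1 embryo suffice. The count of 13 was therefore not set against chance. MZKO 1 had 0.401% of its reads in haemoglobin, 3078 CPM of oviduct markers and 10036 genes at 10 CPM or more, each the highest of the MZKO embryos. Del 6 had the lowest read total of its group, 1635553. Del 3 alone among the del embryos carried Y-linked RNA, with 35.02 CPM of Ddx3y and 34.1 CPM of Eif2s3y.

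The others were called or named genes. Rpl3-ps1 had reads in 1 del embryo, del 2 with 1.35 CPM, and Gm28438 in 1 MZKO embryo, MZKO 2 with 1.89 CPM. Gm5745 had reads in del 6 alone, at 4.06 CPM. Gm7993 and AC125456.1 had reads in del 3 alone, at 0.142 and 0.213 CPM. Tie1 reached 26.6 CPM in MZKO 3, the highest of its group, and Adprhl2 reached 5.96 CPM in del 3.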

How the results depend on the processing

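The count of 14 genes higher in MZKO changed by more than 1.5 times under voom weights, to 2, and under array weights, to 30. It lay between 14 and 16 when 1 embryo was left out. The 4 genes lower became 2 with a filter at 1 CPM, with no filter, with only MZKO and del in the fit, with a Y-linked covariate, without MZKO 1, MZKO 8 and het 1, and without these and del 6. They became 0 with voom and 12 with array weights. Leaving out 1 embryo gave 1 to 5, with 2 without MZKO 2, MZKO 4 or del 2 and 1 without del 3, del 4 or del 6. The embryos share only numbers in their titles, and embryos 2, 3, 4 and 6 of both groups correlated at 0.0848, −0.120, −0.0403 and 0.140 in their deviations from the group means. With a replicate block, 10 genes were higher and 4 lower, of which 9 and 2 were also called without it.

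Genes and sums that were not called changed sign as follows, and the cause was not tested. Cdx2 ranged from −0.11 (without del 6) to 1.26 when 1 embryo was left out, and was −0.025 without MZKO 1, MZKO 8, het 1 and del 6. Gata3 ranged from −0.27 to 0.44 with 1 embryo left out, and was above 0 without MZKO 1, MZKO 8 or del 6. It was 0.10 with a pseudocount of 5 CPM, 0.66 with array weights, 0.86 with the replicate block and without MZKO 1, MZKO 8 and het 1, and 1.17 without del 6 as well. Tead4 ranged from −0.26 to 0.14 (without MZKO 1), and was 0.047 with array weights, 0.054 with the replicate block and without MZKO 1, MZKO 8 and het 1, and 0.18 without del 6 as well. Gata6 ranged from −0.051 (without MZKO 8) to 0.22. The summed ratio ranged from 0.831 to 1.09 for Odc1, from 0.997 (without MZKO 4) to 1.17 for Rpl15 and from 0.773 to 1.19 for mt-Nd3. Medians of uncalled gene lists changed sign too. Without del 6 they were −0.18 for the Hippo pathway, −0.01 for cavitation, −0.02 for oocyte transcripts, −0.0041 for mitosis, −0.27 for p53 targets and for the genes leading the blastocyst difference, −0.08 for the tricarboxylic acid cycle, −0.09 for fatty acids and −0.01 for nucleotides. Without MZKO 1, MZKO 8 and het 1 they were 0.28 for trophectoderm, −0.10 for the Hippo pathway and −0.04 for p53 targets.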
